A study of Mus musculus with 20 samples.

Results

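The 7 genes described here, Tcf7l2, Slc17a6, Calb2, Ntng1, Zic1, Zic4 and Gal, are marker genes of regions that border the bed nucleus of the stria terminalis, mainly the thalamus and the septum. They were chosen from the table of 12988 genes because their values were high in 1 library, stressed female replicate 2, when set against the other stressed female libraries. That choice held unevenly: replicate 2 was the highest of the 5 stressed female libraries for 6 of the 7 genes and the second highest for Zic1, and it was the highest of all 20 libraries only for Tcf7l2, Slc17a6, Calb2 and Ntng1. The values of the stressed females are therefore given as a description, and tests are limited to comparisons of the other groups. The edgeR fit takes its spread from all 20 libraries, female stressed 2 included, so the results for the 7 genes are also given without that library and with only the groups compared.

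RNA was sequenced from the anterodorsal part of that bed nucleus (adBNST), a small forebrain region, of mice that were 7 to 9 weeks old when assigned to groups. The 4 groups were female controls, females exposed to chronic variable mild stress (CVMS, a 6-week schedule of changing minor stressors), male controls and males exposed to CVMS, with 15 mice each. No genotype, strain or transgene is given in the labels, and all mice received ketamine anesthesia before the region was microdissected from brain slices. Stressed mice were sampled 1 hour after a last stressor of wet bedding. Tissue of 3 mice was pooled per library, which gave 5 libraries per group, so that each value is that of a pool and not of a mouse. Total counts ran from 2707881 to 33595388 per library, and female stressed 2 held 28411781. All 16 genes of a list for GABA neurons of the bed nucleus and its subpallial surroundings were in the table, among them the GABA-synthesizing enzymes Gad1 and Gad2, which stood at 628 and 1102 CPM (the count of a gene relative to the TMM-scaled total of its library) in female stressed 2.

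The adBNST lies close to the striatum, the septum, the thalamus and the preoptic area, and most of its neurons release GABA. Excitatory thalamic relay neurons are set apart from it by the vesicular glutamate transporter VGLUT2, by the Wnt-pathway transcription factor Tcf7l2 and by the axonal adhesion protein netrin-G1. Zic transcription factors are made by neurons of the septum and in the meninges, calretinin is made by neurons of the midline thalamus and by many interneurons, and galanin is a peptide of hypothalamic, preoptic and some bed nucleus neurons. None of the 7 is restricted to 1 region, and Tcf7l2 is also made by newly formed oligodendrocytes. In tissue made of many cells, more cells of a type and more RNA per cell cannot be told apart.

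Zic1 and Zic4 are neighbours that share a stretch of chromosome 9 on opposite strands, and Gal had the largest fold difference of the 7 between control males and females. Their start regions are shown because these genes carried the closest pairwise relation and the largest sex difference below. RefSeq start regions (250 bases before to 50 bases after a start, GRCm38.p6) were found for 6 of the 7 genes. Capitals mark matches, on either strand, to the CCAAT box (CCAAT), the E-box (CACGTG), the core of the cyclic AMP response element (TGACG) and the Tcf/Lef core (CTTTGA), with each sequence read 5′ to 3′ along its gene.
Zic1, chr9:91365719-91366018, minus strand: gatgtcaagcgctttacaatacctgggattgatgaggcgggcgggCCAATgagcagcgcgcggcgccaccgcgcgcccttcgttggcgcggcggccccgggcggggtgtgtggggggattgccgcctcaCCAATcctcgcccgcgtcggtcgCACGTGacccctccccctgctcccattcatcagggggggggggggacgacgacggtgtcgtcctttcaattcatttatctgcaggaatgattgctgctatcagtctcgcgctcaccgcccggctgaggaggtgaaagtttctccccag
Zic4, chr9:91368722-91369021, plus strand: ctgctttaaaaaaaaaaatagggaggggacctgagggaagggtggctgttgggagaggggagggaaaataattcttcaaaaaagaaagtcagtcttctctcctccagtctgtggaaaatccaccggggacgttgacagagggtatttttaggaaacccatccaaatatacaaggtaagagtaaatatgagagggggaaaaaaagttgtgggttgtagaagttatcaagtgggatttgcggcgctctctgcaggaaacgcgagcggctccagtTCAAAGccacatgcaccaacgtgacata
Gal, chr19:3414495-3414794, minus strand: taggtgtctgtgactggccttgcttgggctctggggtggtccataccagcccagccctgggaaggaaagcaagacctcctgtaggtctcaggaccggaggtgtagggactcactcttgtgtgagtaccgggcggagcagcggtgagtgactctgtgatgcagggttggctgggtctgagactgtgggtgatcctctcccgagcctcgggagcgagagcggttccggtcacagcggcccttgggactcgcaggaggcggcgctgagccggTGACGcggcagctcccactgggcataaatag

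The Zic1 window held 2 CCAAT boxes and 1 E-box, the Zic4 window 1 Tcf/Lef core and the Gal window 1 cyclic AMP core. The cyclic AMP core also stood once in the first window of Tcf7l2 and once in the second of Slc17a6, and none of these motifs was found in the other windows of the members. Such letters are common: CCAAT was found in 37.4% of the 32851 start windows of the table, TGACG in 20.8%, CTTTGA in 16% and CACGTG in 7.15%. The full palindromic estrogen response element, present in 0.07% of windows, was not found in these 8 windows. The number of CpG dinucleotides separated the windows, with 34 at the first start of Tcf7l2, 31 at Zic1 and 28 at Ntng1, 16 at Gal, and 8 at both Zic4 and the first start of Slc17a6, against a median of 7 over all windows. The starts of Zic1 and Zic4 in these windows lie 3204 bases apart, and the 2 genes point away from each other.

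In the GENCODE M21 annotation of GRCm38, Tcf7l2 spans chr19:55741820-55933654, Slc17a6 chr7:51622006-51671119, Calb2 chr8:110137502-110168210, Ntng1 chr3:109780040-110144011, Zic1 chr9:91358058-91365810, Zic4 chr9:91362413-91389348 and Gal chr19:3409915-3414544. Zic1 and Zic4 share 3398 bases of gene span but only 60 bases of exon, 1.05% of the exon length of Zic1 and 0.581% of that of Zic4. The library kit keeps strand, but whether the counting used it is not given in the sources used here, so reads from those 60 bases may be shared. No other gene of the table overlapped a member.

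Per kilobase of exon, the 7 genes covered a wide range of levels. Calb2 was the most abundant at a mean of 45.7 FPKM (CPM divided by the exon length in kilobases) over the 20 libraries, followed by Zic1 at 19.1, Gal at 9.69, Slc17a6 at 5.31, Ntng1 at 3.47, Tcf7l2 at 1.62 and Zic4 at 1.59 FPKM. Over the libraries Calb2 ranged from 20.3 to 81.9 FPKM and Zic1 from 13.7 to 25.7 FPKM, while Gal ran from 2.71 to 18.9 FPKM and Slc17a6 from 1.86 to 13.4 FPKM, so that Gal and Slc17a6 overlapped widely. Tcf7l2 and Zic4 did not differ beyond their spread. Relative to its own mean in CPM, Gal varied most over the 20 libraries (coefficient of variation 54.2%), then Slc17a6 (51.2%), Calb2 (31.6%) and Tcf7l2 (26.9%), and the least variable were Zic4 (20.3%), Zic1 (18.7%) and Ntng1 (14.1%).

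Among the transcription factors, Tcf7l2, which with beta-catenin turns on Wnt target genes and specifies thalamic neurons, stood apart in 1 library of the stressed females. Its level was 13.7, 28.1, 10.3, 12.8 and 13.4 CPM in stressed females 1 to 5. Replicate 2 was thus 2.14-fold above the median of the other 4. Female controls 1 to 5 stood at 12.2, 12.9, 18.5, 14.3 and 12.9 CPM, with replicate 3 the highest. Male controls stood at 13.5, 13.7, 17.8, 14.7 and 14.9 CPM and stressed males at 12.2, 10.7, 11.7, 12.9 and 13.1 CPM. Every stressed male library was below every male control library, by a narrow margin between the nearest values.

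Zic1, a zinc-finger factor of the septum and of the meninges, did not set replicate 2 apart. It was measured at 126, 128, 129, 77.9 and 82.6 CPM in stressed females 1 to 5, so replicates 1, 2 and 3 lay together and replicates 4 and 5 lay lower. Female controls held 113, 139, 112, 88.5 and 110 CPM. Male controls held 101, 80.6, 125, 112 and 95.5 CPM, and stressed males 91.8, 83.1, 117, 146 and 118 CPM. The groups overlapped throughout. Zic4, its neighbour, also had replicates 1, 2 and 3 above replicates 4 and 5 of the stressed females, at 16.9, 19.5, 18.5, 12.1 and 12.2 CPM, and ranged from 11.3 to 21.9 CPM over all libraries. For these 2 genes the label of a marker high in replicate 2 is not borne out beyond 1.23-fold and 1.34-fold over the median of the other 4, which is within the range of those 4 for Zic1.

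Slc17a6 encodes VGLUT2, the transporter that loads glutamate into the vesicles of thalamic, hypothalamic and septal excitatory neurons. Its level was 17.2, 72.2, 21.5, 20.96 and 12.96 CPM in stressed females 1 to 5. Replicate 2 was 3.79-fold above the median of the other 4, the fourth largest such excess among all 12988 genes. Female controls stood at 19.6, 24.5, 53.9, 47.1 and 28.8 CPM, so replicates 3 and 4 were also high. Male controls stood at 22.5, 20.05, 36.2, 35.2 and 32.7 CPM. Stressed males stood at 24.9, 23.4, 10.02, 25.3 and 25.1 CPM, 4 of them nearly equal and replicate 3 well below. Ntng1, the glycolipid-anchored netrin-G1 of thalamic axons, was at 40.5 CPM in female stressed 2 against 24.4 to 28.2 CPM in the other 4. It ran from 26.0 to 33.0 CPM in female controls, 27.8 to 33.7 CPM in male controls and 24.0 to 28.0 CPM in stressed males.

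Calb2 encodes calretinin, a calcium buffer. It was at 67.1, 143, 81.3, 67.4 and 48.0 CPM in stressed females 1 to 5, and replicate 2 was 2.12-fold above the median of the others. Female controls held 63.0, 79.8, 134, 91.1 and 90.1 CPM, where replicate 3 came within reach of female stressed 2. Male controls held 80.3, 61.8, 82.2, 97.9 and 94.4 CPM and stressed males 65.5, 67.3, 35.4, 75.0 and 69.6 CPM. Replicate 3 of the stressed males was the lowest of all 20 libraries for Calb2 and for Slc17a6.

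Gal, the precursor of the neuropeptide galanin, had another pattern. It was at 3.36, 10.5, 5.02, 2.61 and 2.13 CPM in stressed females 1 to 5, 3.52-fold higher in replicate 2 than the median of the others. Female controls stood at 4.54, 4.12, 5.99, 10.2 and 3.87 CPM. Male controls stood at 12.3, 13.1, 8.25, 14.0 and 14.9 CPM, so 4 of the 5 were above all female libraries of either condition, and 5 libraries of other groups were above female stressed 2. Stressed males were spread from 2.89 to 11.8 CPM (9.58, 6.16, 2.89, 11.8 and 7.37 in order). The counts behind these values ran from 27 in female control 4, the shallowest library, to 477 in male control 5.

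**Figure D1:**
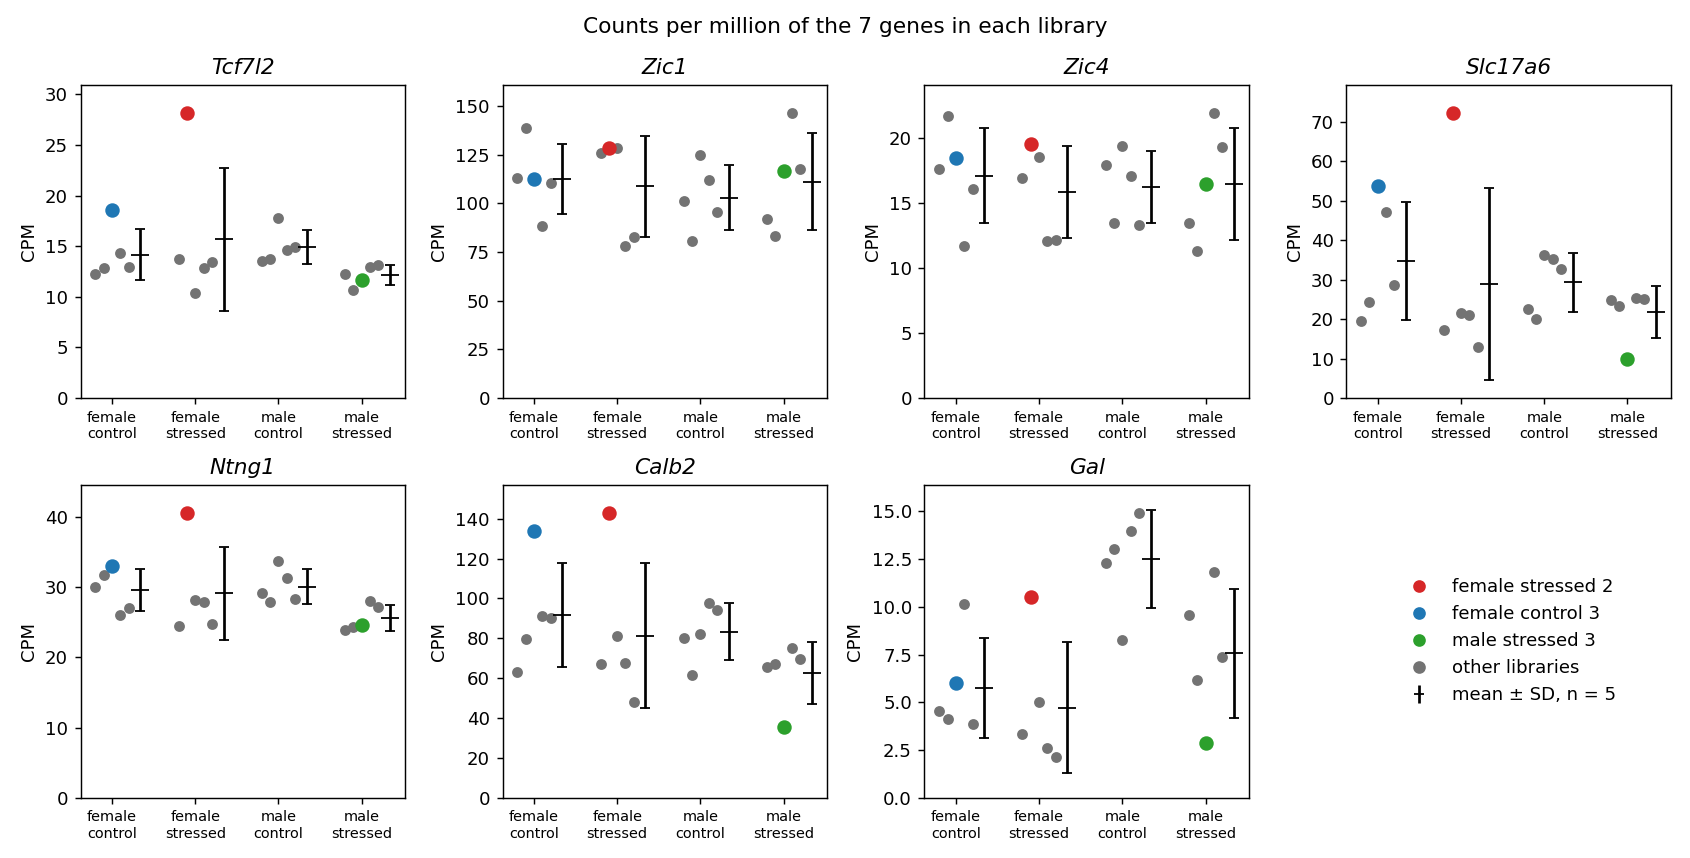
CPM (vertical axes, from 0) of the 7 genes in each of 20 libraries by group (horizontal axes), with mean ± SD of 5 libraries beside each group. Female stressed 2 (red) stands above the other stressed females for Slc17a6 (72.2 against at most 21.5 CPM) but lies with replicates 1 and 3 for Zic1, female control 3 (blue) is high for Slc17a6 and Calb2, and male stressed 3 (green) is low for both.

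In female stressed 2 as a whole, 37 of 12988 genes (0.285%) were at least 2-fold above the median of the other 4 stressed females and 9 (0.0693%) at least 2-fold below. Of the 7 members, 4 (Tcf7l2, Slc17a6, Calb2 and Gal) were among the 37, which the choice of genes favoured. In the same measure the other 19 libraries had 0 to 18 genes above and 1 to 142 below, the highest of both in female control 4, the library with the fewest counts (2707881). Among genes with a mean of at least 5 CPM, the 10 with the largest excess in female stressed 2 were Oxt, Adcyap1, Slc17a6, Gal, Ebf2, Tbr1, Greb1, Nrn1, Ebf3 and Trh. The hypothalamic peptide genes Oxt (oxytocin) and Trh (thyrotropin-releasing hormone) stood at 28.3 and 18.1 CPM, against ranges of 2.19 to 3.49 and 6.56 to 9.17 CPM in the other stressed females. Tbr1, a factor of excitatory forebrain neurons, stood at 24.1 CPM against 4.69 to 10.2 CPM, and Adcyap1, the PACAP precursor, at 16.2 against 2.86 to 5.17 CPM. The 10 genes furthest below included Scn4b, a sodium channel subunit abundant in the striatum, at 241 CPM against 338 to 676 CPM, and Slc17a8, which encodes the third vesicular glutamate transporter, at 6.98 against 11.6 to 17.7 CPM.

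Lists for the neighbouring regions moved unequally in that library. Of 16 genes first listed for the hypothalamus and preoptic area, only 7 were in the table of 12988 genes. Avp, Hcrt, Pmch, Agrp, Pomc, Sim1, Fezf1, Foxb1 and Ghrh were not. All 7 measured genes were above the median of the other 4, with a median difference of 0.39 in log2 CPM, against 0.01 over all genes. Their summed level was 118 CPM, of which Oxt made up 28.3 CPM, where the other groups ran from 49.6 to 83.3 CPM. Of 11 thalamic genes other than the members, 10 were above, with a smaller median of 0.21 and 0 of them 2-fold above. Rgs16 (13.6 CPM, 0.88 above) and Slitrk6 (15.6 CPM, 0.69 above) led the thalamic list. Of the 15 genes first listed for the thalamus, Tnnt1 and the thalamic factors Gbx2, Lhx9 and Shox2 were not in the table of 12988 genes. Of 8 septal genes 7 were above, with a median of 0.19, but stressed female 3 was higher still, with 8 of 8 above and a median of 0.33.

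The striatal and cholinergic lists were low in the same library. All 11 striatal genes, which include the dopamine receptors Drd1 and Drd2, were below the median of the other stressed females, by a median of -0.83, and they summed to 2472 CPM where the other 4 held 3144 to 5149 CPM. All 5 cholinergic genes were below, by a median of -0.60, with Chat, the acetylcholine-synthesizing enzyme, at 6.14 CPM, the lowest of its group. The bed nucleus list summed to 3521 CPM, the lowest of the 20 libraries, with 6 of 16 genes above the median of the other stressed females. Oligodendrocyte genes were above in 10 of 10, by a median of 0.11, and newly formed oligodendrocyte and precursor genes in 6 of 6, by 0.17, beside the excess of 1.09 for Tcf7l2. Meningeal genes, a list that does not hold Zic1 itself, were above in 4 of 7, by a median of 0.0013. The septal list shares genes, Zic2 and Zic5 among them, with the relatives of the members given below. The part of these cell types in the members' values was not tested.

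A library of another group, female control 3, is set beside female stressed 2 as a description only. Female control 3, picked out after its values were seen, had all 7 members above the median of the other 4 female controls, by 1.02 for Slc17a6, 0.66 for Calb2, 0.52 for Tcf7l2, 0.46 for Gal, 0.21 for Ntng1, 0.13 for Zic4 and 0.01 for Zic1, on the log2 CPM scale. The excess of Slc17a6 ranked 8 and that of Calb2 ranked 31 among all 12988 genes. Of the 10 genes furthest above in female stressed 2, 10 were also above in female control 3, with a median of 0.62. Of the 10 furthest below, 9 were also below, with a median of -0.65, where 50.73% of genes of at least 5 CPM were above. The 10 furthest above include the members Slc17a6 and Gal. Such counts were made for no other library and were not tested. The 11 striatal genes were again all low, by a median of -0.76, with a sum of 2519 CPM, and the 10 oligodendrocyte genes were all above, by a median of 0.33. The hypothalamic list was less shifted, with 5 of 7 above and Oxt at 9.44 CPM within the 4.26 to 13.2 CPM of the other female controls. Having all 7 members above was not particular to these libraries. It also held in male control 4 (median 0.14) and male stressed 4 (median 0.19), where the striatal medians were 0.02 and -0.17.

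**Figure D2:**
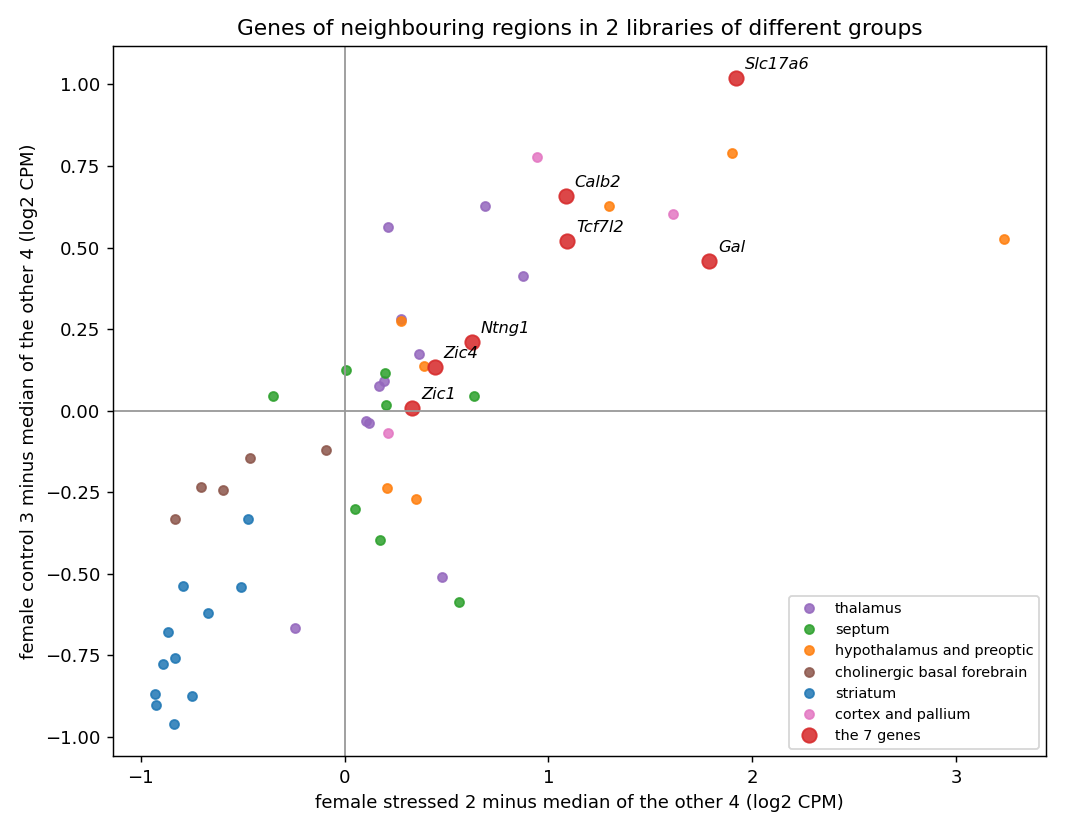
Difference of each gene from the median of the other 4 libraries of its group in female stressed 2 (horizontal) and female control 3 (vertical), both in log2 CPM, for the 7 genes and 6 lists. Slc17a6 lies at 1.92 and 1.02, the top of the vertical axis, the Zic genes lie near 0 on the vertical axis, and the 11 striatal genes lie below 0 on both axes.

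Male stressed 3, also picked out after its values were seen, was low for Slc17a6, Calb2 and Gal. The difference from the median of the other stressed males, in log2 CPM, was -1.31 for Slc17a6, -0.95 for Calb2 and -1.504 for Gal, while it was 0.17 for Zic1, 0.026 for Zic4, -0.11 for Tcf7l2 and -0.067 for Ntng1. The 11 striatal genes were all above, by a median of 0.59, with a sum of 5212 CPM, the highest of the 20 libraries, and the hypothalamic list was at its lowest, 49.6 CPM. This library held 29041243 counts, close to the total of female stressed 2. Members and striatal genes did not always differ in direction. In female control 4, the shallowest library, Slc17a6 was 0.82 and Gal 1.21 above the median of the other female controls. There 4 of the 7 members were above and 3 below, and all 11 striatal genes were above, by a median of 0.14.

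**Figure D3:**
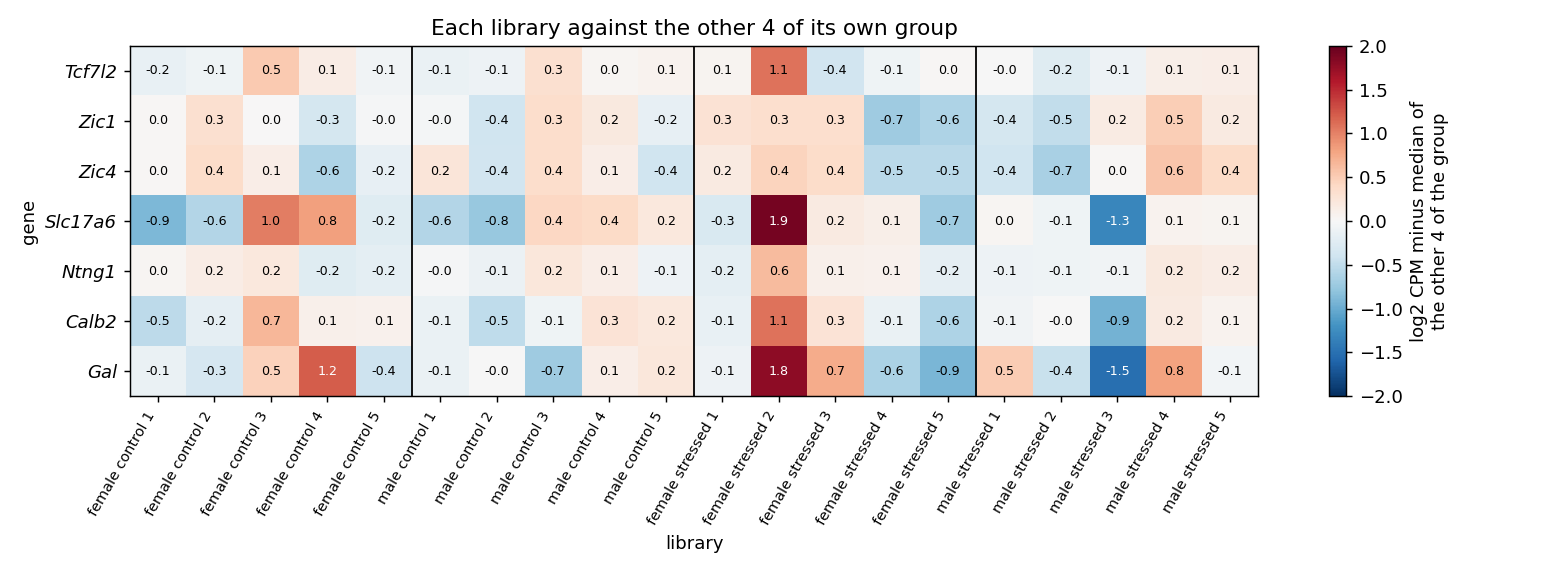
Each cell gives 1 gene (rows) in 1 library (columns) as log2 CPM minus the median of the other 4 libraries of its group, with red above and blue below, and black lines between groups. Female stressed 2 is red in every row, most for Slc17a6 (1.9) and Gal (1.8), and male stressed 3 is dark blue for Slc17a6, Calb2 and Gal.

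Whether the 7 genes moved together was asked in the 15 libraries outside the stressed female group, after subtracting group means from log2 CPM. Pearson's r, Spearman's rho and their p-values (two-sided, from 100000 permutations of libraries within groups) were computed for 21 pairs and adjusted by the Benjamini-Hochberg method. Of the 21 pairs, 5 passed an adjusted p of 0.05, all positive. Slc17a6 correlated with Calb2 (r 0.92, permutation p 0.00011, adjusted p 0.00116; rho 0.79, permutation p 0.0013, adjusted p 0.00683) and with Tcf7l2 (r 0.68, permutation p 0.00819, adjusted p 0.0344; rho 0.80, permutation p 0.00268, adjusted p 0.0113). Zic1 correlated with Zic4 (r 0.94, permutation p 0.0001, adjusted p 0.00116; rho 0.90, permutation p 0.00023, adjusted p 0.00242), and Ntng1 with Zic4 (r 0.83, permutation p 0.00033, adjusted p 0.00231; rho 0.86, permutation p 0.0002, adjusted p 0.00242) and Zic1 (r 0.79, permutation p 0.00066, adjusted p 0.00347; rho 0.81, permutation p 0.00046, adjusted p 0.00322).

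Values were near 0 for Slc17a6 with Zic1 (r -0.054, permutation p 0.862; rho 0.12) and with Zic4 (r -0.10, permutation p 0.745; rho 0.11), and for Calb2 with Zic1 (r 0.069, permutation p 0.833) and Zic4 (r 0.067, permutation p 0.838). Gal had r 0.66 with Slc17a6 (permutation p 0.027, adjusted p 0.0944) and r 0.61 with Calb2 (permutation p 0.0513, adjusted p 0.12), neither of which passed. Ntng1, a thalamic marker by its textbook role, had r 0.57 with Tcf7l2 (adjusted permutation p 0.12), as high as Tcf7l2 with Calb2 (r 0.58, adjusted permutation p 0.12), and r 0.33 with Calb2 and 0.24 with Slc17a6 (adjusted permutation p 0.489 and 0.655). Tcf7l2 had r 0.31 with Zic1 and 0.32 with Zic4 (adjusted permutation p 0.489 for both). The difference between correlations was not tested.

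Leaving out the 2 libraries farthest from the median of the first gene of a pair gave r 0.92 for Zic1 with Zic4, 0.87 for Ntng1 with Zic4 and 0.85 for Ntng1 with Zic1, and these 3 stayed under an adjusted p of 0.05. For Slc17a6 with Calb2 the libraries left out were female control 3 and male stressed 3, and r was 0.79 with an adjusted permutation p of 0.0753, while the pair passed without female control 3 alone (r 0.895, adjusted permutation p 0.0047) and without male stressed 3 alone (r 0.86, adjusted permutation p 0.0044). For Tcf7l2 with Slc17a6, without female control 3 and male control 3, r was 0.60 with an adjusted permutation p of 0.255. That pair also missed the threshold on leaving out any 1 of 10 of the 15 libraries, with r from 0.59 to 0.799 over all 15 such fits and adjusted permutation p from 0.000525 to 0.114, so the call is not firm at this number of libraries. Within single groups of 5 libraries, r for Slc17a6 with Calb2 was 0.89 in female controls, 0.81 in male controls and 0.99 in stressed males, and for Zic1 with Zic4 it was 0.97, 0.85 and 0.97, given as a description. No batch is named in the labels.

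**Figure D4:**
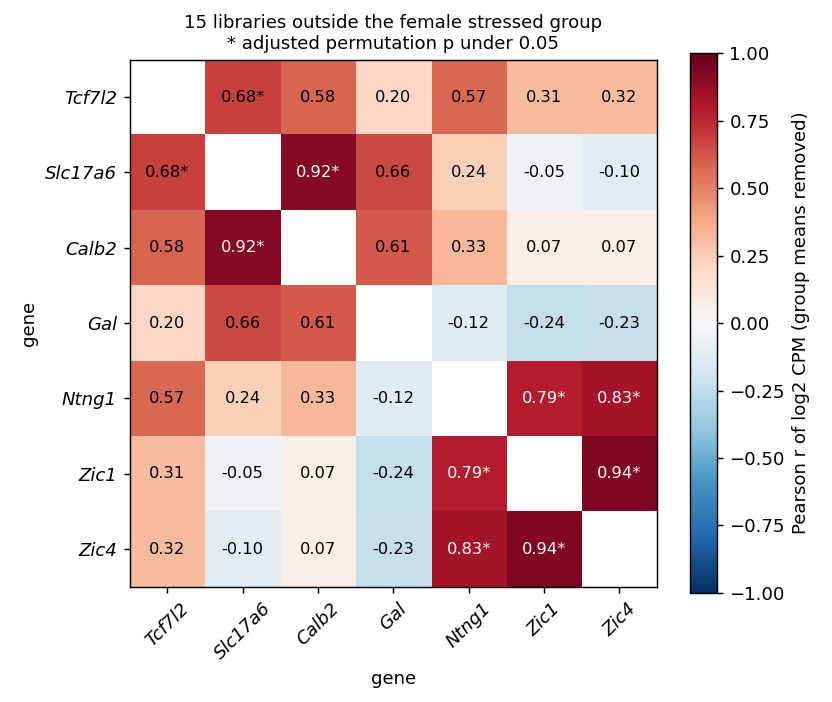
Pearson r of log2 CPM between the 7 genes over 15 libraries outside the stressed female group, with group means removed; red is positive, blue negative, and an asterisk marks an adjusted permutation p under 0.05. Slc17a6 with Calb2 (0.92) and Zic1 with Zic4 (0.94) are the highest, and the block between Slc17a6 or Calb2 and the Zic genes lies between -0.10 and 0.069.

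The genes of the whole table most like each member over the same 15 libraries were named by the size of r alone. For Zic1 they were Pld5 (r 0.97), Zic2 (0.93) and C130074G19Rik (0.92), and for Zic4 they included the septal channel gene Trpc4 (0.92) and Ankrd29 (0.92). For Slc17a6 they were Car10 (0.96), Bend6 (0.94) and Sparc (0.93), for Calb2 Usp29 (0.97), Adcy8 (0.97) and Gng2 (0.95), and for Gal Rgs16 (0.91), Nectin1 (0.91) and Sobp (0.90). For Tcf7l2 they were Emb (0.89), Cfl2 (0.88) and Fundc1 (0.88), and for Ntng1 Ddo (0.90), Zfp800 (0.89) and 1110059E24Rik (0.88). Over all genes the median r with a member lay between -0.04 and 0.03, and the 99th percentile between 0.71 and 0.84. The r of 0.68 for Tcf7l2 with Slc17a6 was below the 99th percentile of both genes (0.71 and 0.84). The other called pairs were above the 99th percentile of both their genes. How many other gene pairs would pass the same permutation test was not computed. Rab27a (mean r 0.63), Tmem255a (0.61), Ppm1e (0.60), Trhde (0.60) and Nrn1 (0.59) were nearest to all 7, and of these Nrn1 was also among the 10 genes furthest above in female stressed 2.

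The sex difference in controls was tested with edgeR's quasi-likelihood test on all 12988 genes, where a gene was called at a Benjamini-Hochberg adjusted p under 0.05. Gal averaged 12.5 ± 2.57 CPM (SD, n = 5) in male controls and 5.74 ± 2.61 CPM (SD, n = 5) in female controls, a log2 fold change of 1.34 (SE 0.38, 2.54-fold) with an edgeR adjusted p of 0.094 (unadjusted p 0.00185), which did not pass. In 4 of 5 male control libraries Gal was above all 5 female controls, and only male control 3 (8.25 CPM) and female control 4 (10.2 CPM) crossed. In all, 0 of the 7 members were called, where 0.747% of all genes were (97 of 12988). The count of members was 1, Gal, with only the control groups, where the count over all genes rose to 304 of 12988. It was also 1 without female stressed 2. That fit is 1 of those with 1 library left out, which called between 32 and 214 of 12988 genes. Since the members were chosen on a library that enters the spread, nothing is read from the count of members. DESeq2 and limma-voom, also fitted on all libraries, called 0. At an unadjusted p under 0.05 there was 1 of 7, where 15.3% of all genes passed. The 5 libraries of the groups did not overlap for 0 of 7 members, where that held for 3.97% of all genes, 1.95% higher in males and 2.02% lower.

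The outcome for Gal turned on female stressed 2, which is in neither group compared but shares the estimate of spread. Without that library the edgeR adjusted p was 0.0263 with a log2 fold change of 1.35, and with the 2 control groups fitted alone it was 0.000913 (log2 fold change 1.37). Leaving out any of the other 4 stressed female libraries, an alternative added after the data were seen, gave edgeR adjusted p-values from 0.0594 to 0.109, and DESeq2 gave 0.135, with a range of 0.000913 to 0.233 over all alternatives. The hypothalamic list, with which Gal shares its textbook home, summed to 62.7 to 83.3 CPM in female controls and 61.9 to 80.3 CPM in male controls, with 0 of 7 genes called and a median log2 fold change of 0.01. Its receptor Galr1 had a log2 fold change of 0.37 (edgeR adjusted p 0.278).

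For the other 6 genes no difference between control males and females passed the test. Log2 fold changes were 0.07 (SE 0.20) for Tcf7l2, -0.15 (SE 0.16) for Zic1, -0.16 (SE 0.18) for Zic4, -0.16 (SE 0.39) for Slc17a6, -0.005 (SE 0.11) for Ntng1 and -0.12 (SE 0.24) for Calb2, with edgeR adjusted p-values from 0.71 to 0.996, from 0.697 to 0.989 without female stressed 2 and from 0.472 to 0.978 with only the control groups. The median over the 7 was -0.12, against 0.0002 over all genes. The striatal list summed to 2519 to 4589 CPM in female controls and 2334 to 2971 CPM in male controls, with 0 of its 11 genes called and 10 at an unadjusted p under 0.05, and its part in these values was not tested.

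The effect of stress in males was tested in the same fit. Again 0 of the 7 members were called, where 0.00770% of all genes were, DESeq2 and limma-voom called 0, and 1 of the 7 had an unadjusted p under 0.05, where 15.5% of all genes did. The count was also 0 without female stressed 2, where the members' edgeR adjusted p-values ran from 0.117 to 0.893, and with only the male groups fitted, where they ran from 0.118 to 0.88. Gal averaged 7.56 ± 3.39 CPM (SD, n = 5) in stressed males, a log2 fold change of -0.77 (SE 0.34, edgeR adjusted p 0.273), and 3 of 5 stressed libraries were below all male controls. Calb2 averaged 62.6 ± 15.6 CPM (SD, n = 5) against 83.3 ± 14.2 CPM in controls (log2 fold change -0.43, SE 0.24, edgeR adjusted p 0.407). Slc17a6 averaged 21.7 ± 6.602 against 29.3 ± 7.51 CPM (-0.47, SE 0.38, edgeR adjusted p 0.612), and without male stressed 3 its log2 fold change was -0.26.

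Tcf7l2 and Ntng1 showed small differences with little spread between libraries. Tcf7l2 averaged 12.1 ± 0.995 CPM in stressed and 14.9 ± 1.71 CPM in control males (SD, n = 5 each), a log2 fold change of -0.28 (SE 0.19, edgeR adjusted p 0.52). It was the 1 member of 7 whose groups did not overlap, all 5 stressed libraries being lower, where 4.30% of all genes were separated in either direction, 3.13% higher and 1.16% lower in stressed males. Ntng1 averaged 25.6 ± 1.83 against 30.1 ± 2.44 CPM, a log2 fold change of -0.22 (SE 0.11, edgeR adjusted p 0.341), with 4 of 5 stressed libraries below all controls. Zic1 (0.12, SE 0.16) and Zic4 (0.08, SE 0.17) had edgeR adjusted p-values of 0.79 and 0.907.

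The median log2 fold change of the 7 genes with stress in males was -0.28, against -0.01 over all genes, with 5 genes below 0 and the Zic genes above. The 11 striatal genes ran the other way: their median was 0.65, 0 of 11 were called, 11 of 11 had an unadjusted p under 0.05, and they summed to 3391 to 5212 CPM in stressed and 2334 to 2971 CPM in control males without overlap. The part of striatal tissue in the members' differences was not tested. The 11 thalamic genes had a median of 0.05 and the 8 septal genes of 0.14, with 0 called in either list by edgeR and 1 thalamic and 0 septal genes at an unadjusted p under 0.05.

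**Figure D5:**
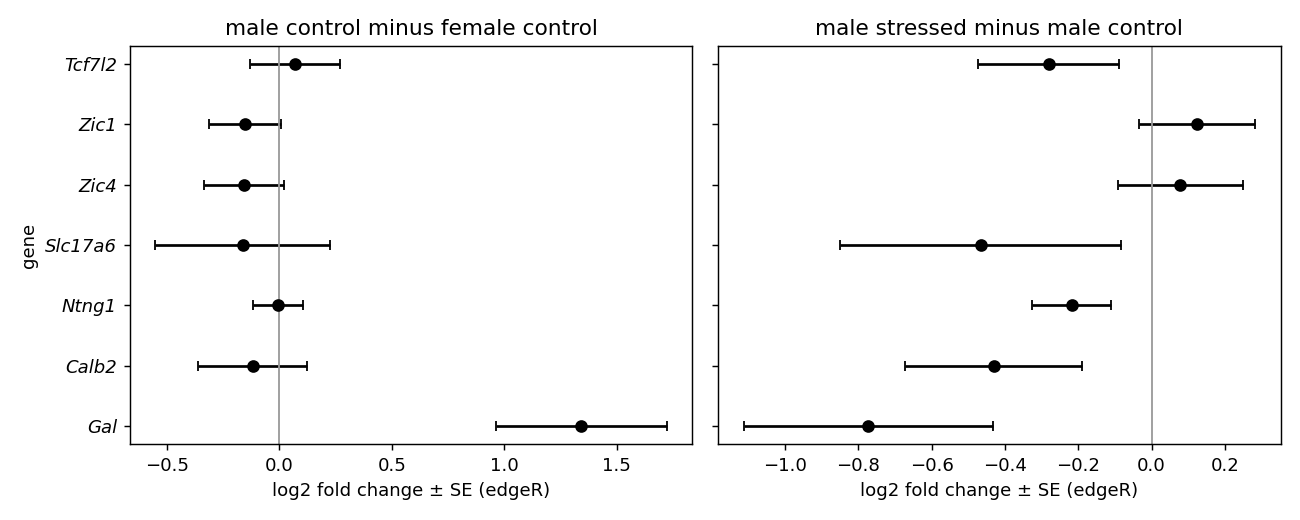
Log2 fold change with its standard error from edgeR (horizontal axes) for each of the 7 genes in the sex comparison of controls (left) and the stress comparison of males (right). Gal is at 1.34 on the left and -0.77 on the right, and no gene had an adjusted p under 0.05.

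Relatives and partners of the members gave 0 calls among 15 measured genes in either comparison, with medians of -0.18 for sex in controls and 0.14 for stress in males, and with 5 and 3 genes at an unadjusted p under 0.05 in edgeR. They include Tcf7, Tcf7l1, Lef1 and Ctnnb1 (beta-catenin) beside Tcf7l2, Slc17a7 and Slc17a8 beside Slc17a6, Ntng2, Lrrc4 and the netrin-G1 ligand Lrrc4c, Calb1 and Pvalb beside Calb2, Zic2 and Zic5, and Galr1. Calb1 (calbindin) had the lowest adjusted p in both, with log2 fold changes of -0.33 (SE 0.083, edgeR adjusted p 0.06) for sex and 0.34 (SE 0.083, edgeR adjusted p 0.0871) for stress. In female stressed 2, Pvalb (parvalbumin) stood at 12.8 CPM, 2.87 above the median of the other 4 in log2 CPM, and it was at 18.7 CPM in female control 3, 3.42 above. Of the vesicular glutamate transporters, Slc17a7, the VGLUT1 gene, was 0.94 above in female stressed 2, whereas Slc17a8 (-1.05) was below. Calb1 (-0.34) and Lrrc4c (-0.41) were also below, and Zic2 (0.64) and Zic5 (0.56) were above. In all, 9 of the 15 genes were above.

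The comparisons that include the stressed females are given without a test, since they hold the column on which the genes were chosen. With all 20 libraries the log2 fold change of stress in females was 0.19 for Tcf7l2, -0.14 for Slc17a6, -0.16 for Calb2, -0.03 for Ntng1, -0.08 for Zic1, -0.18 for Zic4 and -0.01 for Gal. Without female stressed 2 the same values were -0.17, -0.88, -0.48, -0.19, -0.15, -0.30 and -0.69. The genes were chosen as high in that library, so leaving it out lowers these values, and nothing is read from the direction. Between stressed males and stressed females, Slc17a6 moved from -0.49 to 0.26, Tcf7l2 from -0.40 to -0.05, Calb2 from -0.39 to -0.07 and Gal from 0.58 to 1.26 when that library was left out. The difference between the male and the female stress effect moved from -0.32 to 0.42 for Slc17a6, from -0.28 to 0.05 for Calb2, from -0.47 to -0.11 for Tcf7l2 and from -0.76 to -0.09 for Gal, while Zic1 (0.20 and 0.28) and Zic4 (0.26 and 0.38) moved less.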

How the data were processed

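Per the labels' protocols, poly(A) RNA of pooled adBNST tissue was made into 20 libraries by a strand-keeping method. The deposited table holds whole-number counts per gene symbol without normalization, and STAR, featureCounts and mm10 are named in the submitters' processing notes, with no version given. The lowest row total was 1002, and 0 columns were left unassigned. Groups were compared in R 4.3.3 by edgeR 4.0.16 (TMM, 1 mean per group over all 20 libraries, quasi-likelihood test, Benjamini-Hochberg adjustment over 12988 genes, all kept by filterByExpr; common biological coefficient of variation 8.83%). CPM used TMM factors, log2 CPM a prior count of 2, and FPKM the exon length in GENCODE M21. Alternatives used DESeq2 1.42.0 and limma 3.58.1 (voom). The fit was tested on simulated data. P-values measure the spread between pools of 3 mice. Named genes were the 7 members, the 10 highest and 10 lowest genes of female stressed 2, the 3 genes most alike each member (5 for all) and genes of fixed lists. Members and lists were chosen with earlier results of these data known. Same-numbered libraries of the compared groups correlated in their deviations with r from -0.47 to 0.24, so the numbers were not taken to pair libraries. A gene that these rules would name is not reported here.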

Additional observations from a re-analysis of the deposited data

Results flagged for a closer look

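In sets of 5 libraries (7 genes in 4 groups, 28 sets), a library counted as far from its group where its gap to the nearest other exceeded 0.71 of the group's range in log2 CPM, which chance gives in about 1 in 20 sets. Tcf7l2 in female stressed 2 (28.1 CPM, gap 0.72) and Ntng1 in female stressed 2 (40.5 CPM, gap 0.714) met this, which the choice of the genes on that library favours. The other members did not meet it there, though Slc17a6 (72.2 CPM) fell only just short. Outside the stressed females it was met in 2 of 21 sets, by Slc17a6 (10.02 CPM, gap 0.915) and Calb2 (35.4 CPM, gap 0.819), each the lowest of its group in male stressed 3. Both lie in the same library, and the 2 genes had r 0.99 among the stressed males, so they are not separate cases.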

How the results depend on the processing

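Of the members, 0 were called for stress in males under every alternative run. For sex in controls the count was 0 except with the 2 groups compared fitted alone (1, Gal) and with 1 library left out (0 to 1, the 1 without female stressed 2). The count of all genes called for sex in controls was 97, and 248 with DESeq2, 63 with limma-voom, 48 with the replicate block and 304 with only the groups compared, and 32 to 214 with 1 library left out (lowest without female control 5, highest without female control 3); for stress in males it was 1, and 239, 1, 1 and 303 in that order, and 0 to 232 with 1 library left out (0 without male stressed 3 or 4, 232 without female stressed 2). The replicate block gave an edgeR adjusted p of 0.1525 for Gal. Signs changed for Ntng1 in the sex comparison with DESeq2 (0.0037) and the replicate block (0.0085), and for Slc17a6 with limma-voom (0.0103); with 1 library left out Ntng1 ran from -0.0401 to 0.035, Slc17a6 from -0.34 to 0.14, Calb2 from -0.24 to 0.081, and Zic4 with stress in males from -0.048 to 0.18. Correlated pairs numbered 5, 3 without the 2 farthest libraries, and 4 to 6 with 1 library left out. Slc17a6 with Zic1 and Zic4 turned to 0.12 and 0.11 by rho, and without the 2 farthest libraries Slc17a6 had -0.072 with Ntng1 and 0.021 with Zic1. With 1 library left out, r ran from -0.203 to 0.088 for Slc17a6 with Zic1, -0.205 to 0.0803 for Slc17a6 with Zic4, -0.089 to 0.203 for Calb2 with Zic1, -0.0602 to 0.154 for Calb2 with Zic4, -0.315 to 0.159 for Ntng1 with Gal and -0.524 to 0.0405 for Zic4 with Gal. The median excess of the 7 genes in female stressed 2 was 1.09, and 0.76 against the other 19 libraries. Without female stressed 2 the members' median log2 fold change moved from -0.08 to -0.30 for stress in females, from -0.19 to 0.12 for sex in stressed mice and from -0.28 to 0.05 for the interaction. The members were chosen as high in that library, so the direction of these moves followed from the choice, and nothing is read from it. Gal, at 27 counts in the shallowest library, is the member that depth limits most.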

Other observations

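Other lists in female stressed 2 are given as values against the median of the other stressed females in log2 CPM. Of 8 genes first listed for cortex and pallium only 3 were measured (Tbr1, Slc17a7 and Cux2). These 3 were above, with a median of 0.94. Of 7 measured genes of choroid plexus and ependyma (10 listed) 6 were above (median 0.41). Of 3 measured habenular genes (9 listed) 2 were above (median 0.25), and of 10 astrocyte genes 9 (median 0.15). Microglial genes were above in 1 of 9 (median -0.11) and endothelial genes in 3 of 8 (median -0.011).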
